A study of Mus musculus with 16 samples.

Results

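Thbs1, the gene for thrombospondin 1, was followed through 16 RNA-seq libraries of sorted mouse neutrophils, as 1 of the 10296 genes listed with a value in each library. It was picked by its symbol, and for its level in the lung against blood and spleen, so that level is described here and carries no test. The libraries hold Ly6G+ neutrophils of C57BL/6 mice from blood, spleen or lung. Germ-free (GF) mice, which are raised without microorganisms, were set against specific pathogen-free (SPF) mice, which carry a microbiota. The groups were GF blood (2 libraries), SPF blood (2), GF spleen (3), SPF spleen (3), GF lung (3) and SPF lung (3). All mice were of 1 strain, and neither an age nor a treatment is given. The labels describe each sample as coming from a mouse and do not say whether libraries of different tissues share a mouse. The p-values therefore reflect how far libraries of 1 group lie apart, part of which may be technical.

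Thrombospondin 1 is a large secreted glycoprotein of the extracellular matrix, stored in the alpha granules of platelets and made by many cell types, among them fibroblasts, endothelium and macrophages. It binds the scavenger receptor CD36, the integrin-associated protein CD47 and several integrins. It restrains angiogenesis and can release transforming growth factor beta (TGF-beta) from its latent complex. In inflamed tissue it is also known as a ligand through which macrophages take up dying neutrophils, and neutrophil proteases can cleave it.

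In the annotation of build GRCm38, Thbs1 (ENSMUSG00000040152) lies on the plus strand of chromosome 2, at chr2:118111876-118127133. The gene spans 15258 bases with 6073 bases of exon, and the longer of its 2 annotated transcripts has 22 exons. An antisense long noncoding RNA gene, Gm29233, overlaps 208 exon bases of Thbs1 and was not analysed here. Counting by strand is not stated in the sources used here, so reads from that overlap cannot be told apart.

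The libraries held 104213 to 3033941 reads over the listed genes, with medians of 2712907 in blood, 199487 in spleen and 856319 in lung. All 14 listed neutrophil markers, among them Csf3r, S100a8 and Ly6g, had reads in all 16 libraries. In bulk samples such as these, fewer cells of a type and less RNA per cell cannot be told apart.

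Thbs1 was most abundant in the lung libraries in both kinds of mice, and low in blood and spleen, above all in SPF mice. Values are given as the normalised count, which is the deposited value less its constant offset of 0.5 reads. The GF lung libraries held 2253 (replicate 2), 2125 (replicate 3) and 1963 (replicate 4). The SPF lung libraries held 1415 (replicate 1), 3515 (replicate 2) and 1575 (replicate 3). Replicate 2 stood above the other SPF lung libraries and the GF lung libraries lay close together, so that the lung means were near each other at 2114 ± 145 in GF mice and 2168 ± 1169 in SPF mice (SD, n = 3 each).

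In blood the level was 116.9 in GF replicate 2 and 251.9 in GF replicate 3, and 32.5 in SPF replicate 3 and 11.8 in SPF replicate 4. In spleen it was 142.0, 246.9 and 198.2 in GF replicates 1, 3 and 4. The SPF spleen libraries held 45.7, 23.8 and 14.1 in replicates 1, 2 and 4. Each GF library of blood or spleen was above each SPF library of its tissue, and none of them came near the lung range. The means were 184 ± 95.4 in GF blood (SD, n = 2), 22.1 ± 14.7 in SPF blood (SD, n = 2), 196 ± 52.5 in GF spleen (SD, n = 3) and 27.9 ± 16.2 in SPF spleen (SD, n = 3).

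The lung level was 11.5 times the blood level and 10.8 times the spleen level in GF mice. In SPF mice it was 97.9 times the blood level and 77.7 times the spleen level. The lowest lung library was 7.79 times the highest blood library in GF mice and 43.5 times in SPF mice. Against spleen the same ratios were 7.95 and 30.9. All these differences belong to the contrasts for which the gene was chosen. As background, lung libraries were all higher than the others for 26.2% of the 8299 tested genes against GF blood, 17.8% against GF spleen, 31.3% against SPF blood and 15.5% against SPF spleen. These shares were counted on the deposited values, offset included, so they depend in part on library depth. On the log2(value + 1) scale the Thbs1 differences were 3.60 (lung over blood) and 3.44 (lung over spleen) in GF mice and 6.57 and 6.14 in SPF mice. They ranked 168th and 156th from the top of the 8299 genes in GF mice, and 18th and 12th in SPF mice.

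**Figure D1:**
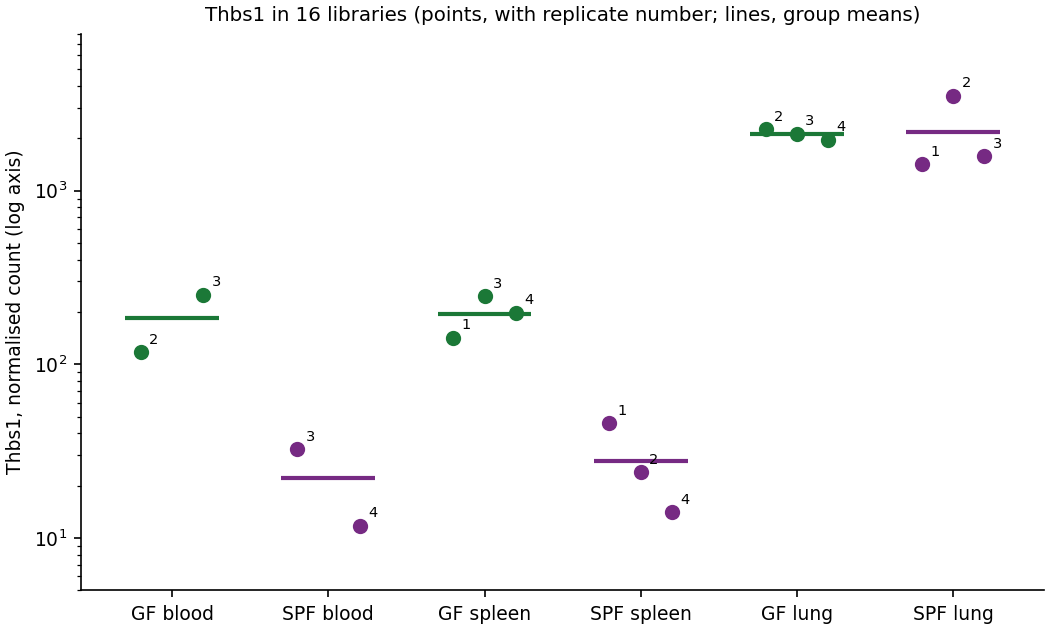
Normalised count of Thbs1 in each of the 16 libraries (points, with the replicate number of the labels) and the mean of each group (lines), on a log axis. The 6 lung libraries lie between 1415 and 3515, and in blood and spleen each GF library (green) lies above each SPF library (purple).

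How firmly each level is known depends on its reads. Thbs1 rested on 718 to 3016 reads in the lung libraries, and on 250 and 34 reads in GF blood replicates 2 and 3. SPF blood replicates 3 and 4 gave 72 and 30 reads. The spleen libraries were the shallowest, with 28, 100 and 33 reads in GF replicates 1, 3 and 4. SPF spleen gave 6, 16 and 3 reads in replicates 1, 2 and 4, the last of which is at the floor of 3 reads.

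Per 100000 reads of a library, SPF spleen replicate 4 had 1.48 Thbs1 reads, with an exact 95% interval of 0.306 to 4.33. SPF spleen replicate 1 had 5.76, with an interval of 2.11 to 12.5 that reaches the lower bound of 9.46 in GF spleen replicate 1. For every other pair of a GF and an SPF spleen library the intervals stayed apart. In blood they also did, from 8.61 to 11.1 in GF replicate 2 and from 17.7 to 35.8 in GF replicate 3, against 1.96 to 3.16 and 0.667 to 1.41 in SPF replicates 3 and 4. The lung intervals were narrow beside the differences between libraries, at 132 to 153 in SPF replicate 1 and 324 to 348 in SPF replicate 2. These intervals cover counting error only, since the reads were amplified and carry no molecular identifiers.

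Set against other genes within a library, per kilobase of exon, Thbs1 ranked between 105th and 238th of 10275 genes in the lung. It ranked 904th to 1856th in GF blood and 952nd to 1476th in GF spleen. In SPF mice its rank was 3848 to 5857 in blood and 2995 to 5395 in spleen. The order of the group means was thus SPF lung, GF lung, GF spleen, GF blood, SPF spleen and SPF blood. The 2 lung groups overlapped, as did GF spleen with GF blood and SPF spleen with SPF blood.

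Blood and spleen neutrophils did not differ in Thbs1 beyond their spread. The difference of spleen minus blood was 0.16 on the log2 scale in GF mice (95% interval -0.99 to 1.30, adjusted p = 0.938, limma). In SPF mice it was 0.43 (-0.71 to 1.58, adjusted p = 0.663, limma). Both intervals reach past 1 log2 unit on the spleen side. By limma, 0.88% of the tested genes differed between spleen and blood in GF mice and 7.06% in SPF mice. These 73 and 586 genes became 29 to 153 and 39 to 952 under the alternatives, and 39 was the count without SPF blood replicate 3.

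The microbiota comparison asks whether the neutrophil transcriptome of a tissue depends on the presence of microorganisms. In blood, Thbs1 was higher in GF mice, with a mean of 184 against 22.1, which is 8.33-fold. The log2 difference was 3.06 ± 0.58 (SE) with a 95% interval of 1.80 to 4.31 (adjusted p = 0.0244, limma). It was the 4th largest increase of the 8299 genes, of which 1.33% were called in either direction and 0.795% as higher in GF mice. Groups that do not overlap are common with 2 libraries on each side, at 26.3% of genes in this direction. That share was counted on the deposited values, whose offset weighs more in shallow libraries. Tested genes at 0 reads in all blood libraries therefore count as higher in GF mice. The blood call was lost without GF blood replicate 3 (2.50, adjusted p = 0.205, limma), without SPF blood replicate 3 (3.75, adjusted p = 0.0539) and without SPF blood replicate 4 (2.37, adjusted p = 0.129). Each of these leaves 1 library on a side, which is assumed to vary like the libraries of the other groups. The call was also lost with no trended or robust prior on the variances (adjusted p = 0.133).

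In spleen, Thbs1 was likewise higher in GF mice, 196 against 27.9, or 7.02-fold. The log2 difference was 2.78 ± 0.47 (SE) with a 95% interval of 1.76 to 3.81 (adjusted p = 0.0255, limma). It was the 2nd largest increase, in a comparison in which 0.325% of genes were called and 0.253% were called higher. The groups did not overlap, as was so for 6.04% of genes in this direction on the deposited values. This call too rests on few reads, and on simulated data false calls in spleen were more frequent than the threshold allows. It was lost by edgeR on the recovered reads (3.00, adjusted p = 0.0927), and without GF spleen replicate 3 (2.60, adjusted p = 0.0731), GF spleen replicate 4 (2.75, adjusted p = 0.0891) or SPF spleen replicate 2 (2.71, adjusted p = 0.0798), each by limma.

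In lung, Thbs1 did not differ between GF and SPF mice beyond the spread of the libraries. The difference was 0.09 ± 0.47 (SE) on the log2 scale, with a 95% interval of -0.94 to 1.11 (adjusted p = 0.999, limma), and the ratio of means was 0.975. The 3 GF libraries fell inside the range of the 3 SPF libraries. In this comparison 0.0241% of genes, or 2 of 8299, were called by limma.

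Averaged over the 3 tissues with equal weight, Thbs1 was higher in GF mice by 1.98 ± 0.30 (SE) on the log2 scale (95% interval 1.34 to 2.61, adjusted p = 0.00545, limma). This was the 4th largest increase among the tested genes, of which 1.39% were called and 0.94% were called higher. Leaving out each library in turn kept this call, with differences of 1.75 to 2.21. Without the 5 libraries under 250000 reads the difference was 1.96 and the adjusted p was 0.0536, but GF blood, GF spleen and SPF spleen then held 1 library each and took their spread from the other groups.

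Whether the GF difference of Thbs1 itself depended on the tissue was tested by interaction terms. The GF minus SPF difference in lung less that in blood was -2.97 on the log2 scale (95% interval -4.59 to -1.35). In lung less that in spleen it was -2.69 (95% interval -4.14 to -1.24). Their unadjusted p-values were 0.001628 and 0.001467 by limma, and neither passed after adjustment over all genes (adjusted p = 0.300 and 0.459). Both terms draw on the lung contrasts for which the gene was chosen, so their p-values are not free of that choice. In each, 0.012% of genes (1 gene) passed, and under the alternatives 0 to 70 genes passed in the blood term and 0 to 48 in the spleen term. DESeq2 on the recovered reads called the blood term (-3.15, adjusted p = 0.0108) and edgeR did not (-2.92, adjusted p = 0.147). Without SPF spleen replicate 1 the spleen term passed by limma (-3.11, adjusted p = 0.0478). For spleen less blood the term was -0.28 (95% interval -1.90 to 1.34, adjusted p = 0.908, limma), in a comparison that called 0.759% of genes.

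**Figure D2:**
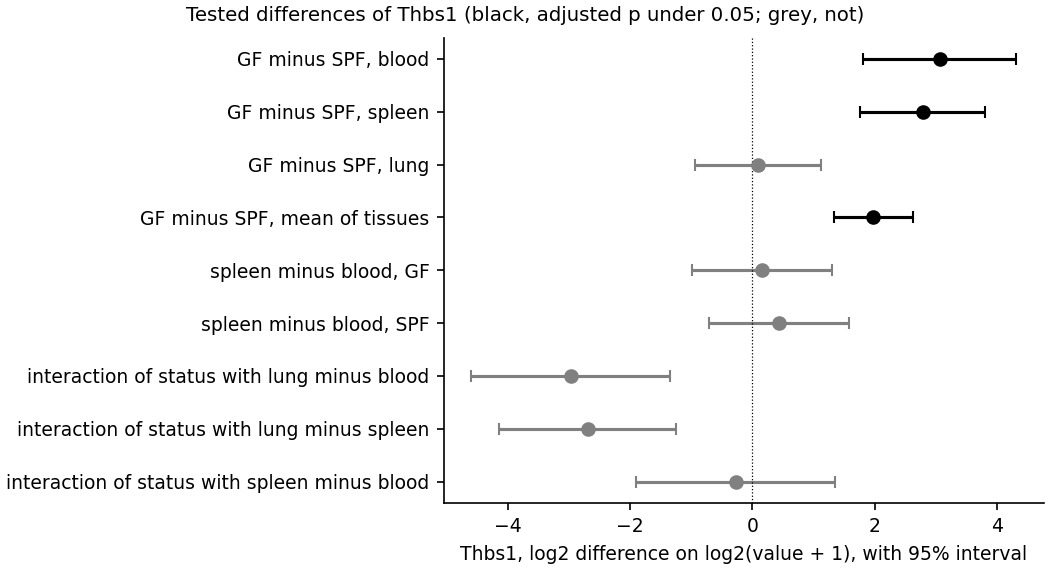
Log2 differences of Thbs1 on log2(value + 1) with their 95% intervals by limma, for the comparisons that were tested. Black marks an adjusted p under 0.05: GF minus SPF in blood (3.06), in spleen (2.78) and as the mean of the tissues (1.98), while the lung difference (0.09) and the interaction terms are grey.

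Thbs1 and Cyth1 were the only genes called higher in GF mice in both blood and spleen, and 0 genes were called lower in both, by limma. Cyth1 encodes cytohesin 1, an exchange factor for ARF GTPases that acts on integrin adhesion in leukocytes. Its normalised counts were 219.8 ± 48.9 in GF and 85.0 ± 31.9 in SPF blood, and 196 ± 36.8 in GF and 68.6 ± 7.55 in SPF spleen. The log2 differences of Cyth1 were 1.41 (adjusted p = 0.0412) and 1.46 (adjusted p = 0.0114), and 0.17 in lung. Cyth1 was named after its values were seen. Its blood call was lost under 11 of 28 alternatives and its spleen call under 4. No other gene had differences as large as those of Thbs1 in both tissues.

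Several other cell types make Thbs1, and their markers moved with tissue. In lung libraries all 10 endothelial, 12 epithelial and 11 fibroblast or smooth muscle markers in the file had reads. Endothelial markers, among them Pecam1 and Cldn5, summed to 1426 to 2419 in GF lung and 792 to 1189 in SPF lung, against 14.1 to 53.3 in blood and spleen. Epithelial markers, led by the surfactant gene Sftpc, summed to 4368 to 11573 in GF lung and 2923 to 5793 in SPF lung, and to at most 441 elsewhere. Both sums were far higher in the lung libraries, which are also those with the most Thbs1.

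Fibroblast and smooth muscle markers summed to 3406 to 3757 in GF lung and 2840 to 3985 in SPF lung, and to 1121 to 2517 in blood and spleen. Most of that sum was Gsn, a gene of actin filament severing, with group means of 1417 to 2288. The collagen gene Col1a2 averaged 62.6 and 58.3 in GF and SPF lung and was at 0 reads in all blood libraries. SPF lung replicate 2, which had the most Thbs1, also had the highest fibroblast sum (3985), and SPF lung replicate 1, which had the least Thbs1 of the lung libraries, had the lowest (2840). Col1a2 was instead highest in SPF lung replicate 3 (73.9), where Thbs1 was 1575. The endothelial sum peaked in GF lung replicate 4 (2419, Thbs1 1963) and the epithelial sum in GF lung replicate 3 (11573, Thbs1 2125). SPF lung replicate 1 was the lowest lung library in each of these too (33.5, 792 and 2923). Neutrophil markers summed to 32544 to 54333 in lung and to 48865 to 106970 in blood and spleen. Macrophage and monocyte markers summed to 1687 to 1933 in lung and 1719 to 2567 elsewhere. Single members differed, since of 16 tested, 4 were higher and 2 lower in lung against GF blood by limma. Against SPF blood 6 were higher and 3 lower, against GF spleen 2 and 2, and against SPF spleen 0 and 2. Of all genes, 7.83%, 12.5%, 8.03% and 7.68% were called higher in these comparisons, and 1.96%, 6.63%, 2.14% and 1.99% lower. Of that list, Csf1r was higher in GF than in SPF blood (946 ± 290 against 489 ± 116, difference 0.94, adjusted p = 0.042) and Ly6c2 was lower (112 ± 33.1 against 321 ± 41.2, difference -1.50, adjusted p = 0.0258), by limma. The part of monocytes in the blood difference of Thbs1 was not tested. The part of these cells in the lung level of Thbs1 was not tested.

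Platelets, which store thrombospondin 1, were traced by 14 markers. In blood they summed to 770.4 and 1007 in GF libraries and 517 and 638 in SPF libraries, so this sum too was higher in GF blood. Within GF blood, replicate 2 had the higher platelet sum (1007) and the lower Thbs1 (116.9). Within SPF blood, replicate 3 had both the higher platelet sum (638) and the higher Thbs1 (32.5). In spleen the sum was 45.6 to 126 in GF and 65.8 to 95.3 in SPF mice, which overlap. In lung it was 341 to 556, of which Sparc, a gene that fibroblasts and endothelium also express, made 388 and 303 of the GF and SPF means. The platelet chemokine genes Pf4 and Ppbp averaged 94.8 and 237.8 in GF blood, and stayed under 10 in every lung mean and spleen mean. In SPF blood replicates 3 and 4 they were at 109 and 72.9 (Pf4) and 257 and 160 (Ppbp). The platelet markers Itga2b and Gp9 were at 206 and 67.3 in GF blood replicate 2 and 111 and 59.3 in replicate 3. In SPF blood they were at 47.9 and 42.5 in replicate 3 and 61.3 and 36.2 in replicate 4. None of the 13 platelet markers tested was called between GF and SPF mice in blood or spleen by limma, where 1.33% and 0.325% of all genes were called. The part of platelets in the blood difference was not tested.

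Erythroid transcripts such as Hba-a1 and Hbb-bs summed to 81424 and 99214 in GF blood and 43944 and 70238 in SPF blood. GF spleen replicate 1 stood apart at 22017, where the other spleen libraries held 36.0 to 107. That library had the lowest Thbs1 of the 3 GF spleen libraries, and without it the spleen call held.

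**Figure D3:**
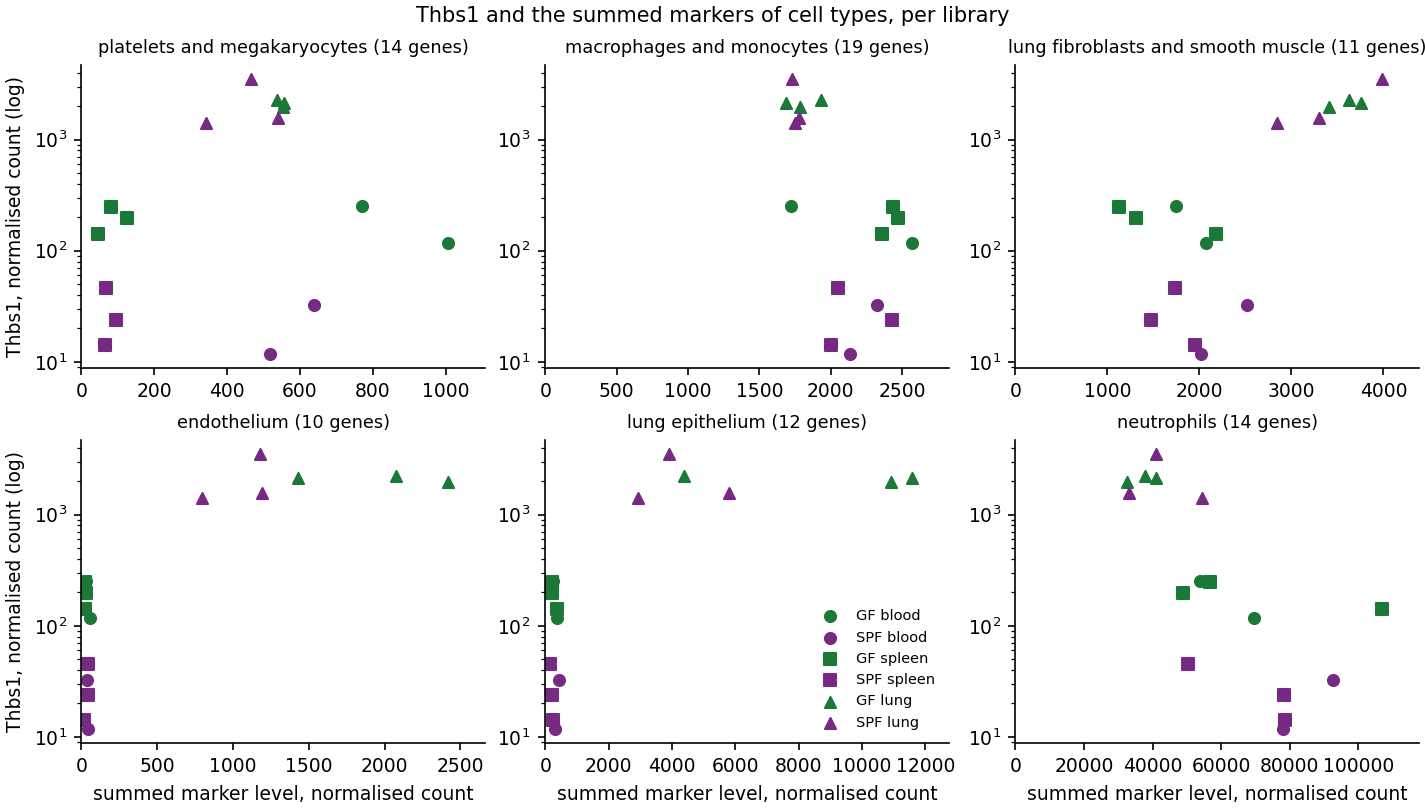
Normalised count of Thbs1 (log axis) against the summed normalised count of the markers of 6 cell types, 1 point per library, coloured by microbiota status and shaped by tissue. Lung libraries (triangles) are apart in endothelial, epithelial and fibroblast markers, while GF and SPF spleen (squares) differ in Thbs1 with overlapping marker sums for platelets.

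The other thrombospondins (Thbs2, Thbs3, Thbs4 and Comp) were not analysed here. Of 16 genes for thrombospondin receptors and partners, 12 were listed and 11 tested. Higher in lung were 4 of the 11 in each of the 4 comparisons, and 1 was lower, in lung against blood of SPF mice. Over all genes, lung against blood called 9.8% (7.83% higher) in GF and 19.1% (12.5% higher) in SPF mice. Lung against spleen called 10.2% (8.03% higher) and 9.66% (7.68% higher). The median difference of the receptors was 0.24 and 0.57 against blood and 0.24 and 0.41 against spleen in GF and SPF mice, against 0.15, 0.16, 0.11 and 0.06 over all genes.

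The receptor with the largest lung difference was Cd36, the scavenger receptor that carries the anti-angiogenic signal of thrombospondin 1 in endothelium. Its normalised count was 546 ± 166 in GF lung and 270.1 ± 65.0 in SPF lung (SD, n = 3), against 6.08 ± 8.60 in GF and 2.41 ± 2.13 in SPF blood (SD, n = 2). All 6 spleen libraries had 0 Cd36 reads, so lung was at least 139.8-fold higher in GF and at least 91.4-fold higher in SPF mice, with a floor of 3 reads over the group. Against blood, Cd36 was higher by 6.06 in GF mice (adjusted p = 4.67e-09) and by 6.33 in SPF mice (adjusted p = 1.7e-09). Per kilobase of exon, Cd36 reached 152 in GF lung and 75.2 in SPF lung, below the 233 to 579 of Thbs1 in single lung libraries. Endothelium, macrophages and lung epithelial cells express Cd36 too. Of their marker sums, the endothelial and epithelial ones were also higher in lung, while that of macrophages and monocytes was not.

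Cd47, the integrin-associated receptor that thrombospondin 1 binds through its carboxyl terminus, was present in every group at means of 281 to 575. It was lower in lung than in blood of SPF mice (289 ± 17.9 against 575 ± 9.95, difference -0.99, adjusted p = 0.00397, limma), a call lost without SPF blood replicate 3 and with a replicate block. Sirpa, the CD47 counter-receptor on myeloid cells, had means of 458 to 958 and was not called between lung and the other tissues.

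Among integrins, Itgb1, the beta 1 chain, was higher in lung in all 4 comparisons. Its level was 220.2 ± 42.1 in GF and 149.6 ± 19.3 in SPF lung, against group means of 45.5 to 74.4 elsewhere. Against GF blood the Itgb1 difference was 1.67 (adjusted p = 0.00178), a call lost without GF blood replicate 3 (0.96), and against SPF spleen it was 1.12 (adjusted p = 0.0235), lost without SPF spleen replicate 1, SPF lung replicate 2 or SPF lung replicate 3 and with no trended or robust prior. Itga6, the laminin receptor alpha 6 chain, was called against GF spleen (17.6 ± 11.8 against 0.823 ± 1.43, difference 2.05, adjusted p = 0.0382), lost under 11 of 27 alternatives. Itgav and Itgb3, the chains of the vitronectin receptor, averaged 6.42 to 11.5 and 20.5 to 62.0 and passed in none of the 4. Itga4 (119 to 232) did not pass either, nor did the calcium sensor gene Stim1 (17.9 to 52.3), and Itga9 was under the level for a test.

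Lrp1, the endocytic receptor that clears thrombospondin 1, was at 31.8 ± 3.89 in GF lung and at a mean of 32.3 in SPF lung, where single libraries ran from 21.7 to 53.1. It was at 1.40 and 2.67 in GF and SPF blood and at 0 reads in all spleen libraries, which puts lung at least 8.14-fold (GF) and at least 10.9-fold (SPF) higher. Its differences against blood were 2.93 (adjusted p = 0.00163) and 3.05 (adjusted p = 0.000736). Calr, whose product calreticulin forms a receptor complex with LRP1, averaged 147 in GF and 126 in SPF lung, 70.3 and 57.8 in blood, and 113 and 47.6 in spleen. In GF mice it was the 1 receptor gene called higher in spleen than in SPF mice (1.21, adjusted p = 0.0499), which was lost under 18 of 28 alternatives. None of the 11 passed between GF and SPF mice in blood or lung by limma. Of all genes, 1.33% passed in blood, 0.325% in spleen and 0.0241% in lung.

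**Figure D4:**
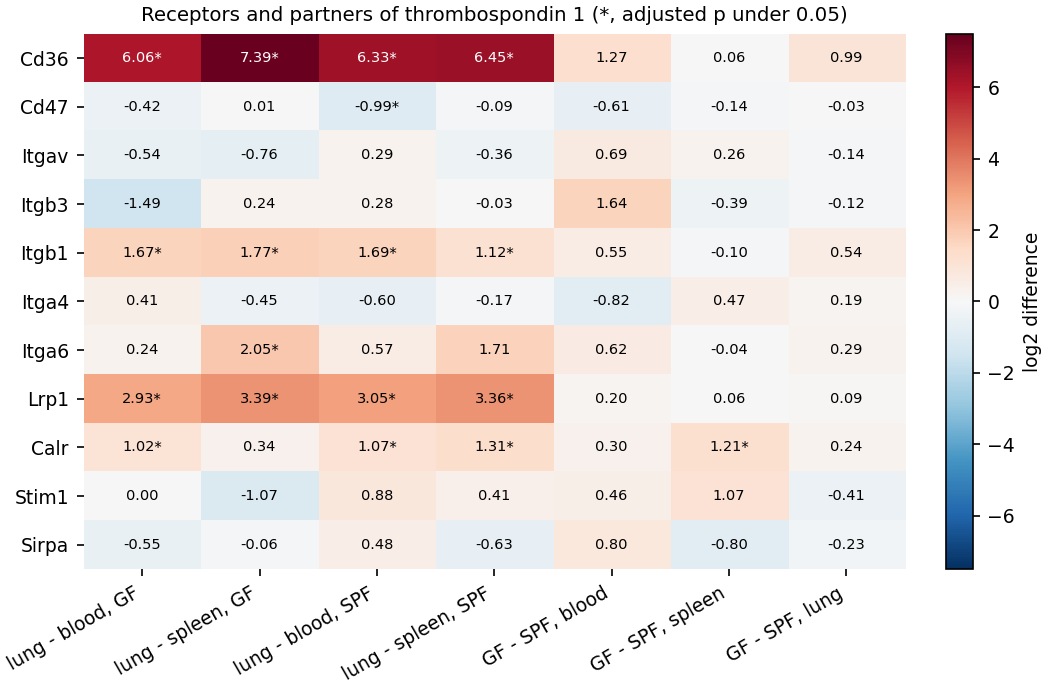
Log2 differences of the 11 tested receptors and partners of thrombospondin 1 in 4 comparisons of lung with blood or spleen and in 3 of GF with SPF mice, as a heat map with the values printed and a star for an adjusted p under 0.05 by limma. Cd36 and Lrp1 are starred in all 4 lung comparisons, and Calr in spleen is the 1 star between GF and SPF mice.

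Of 16 genes whose products cleave thrombospondin 1, inhibit that cleavage or clear it, 7 were listed and tested, Lrp1 among them. Between lung and the other tissues 3 were higher and 2 lower in each of the 4 comparisons, where 1.96%, 2.14%, 6.63% and 1.99% of all genes were called lower (against GF blood, GF spleen, SPF blood and SPF spleen). Timp3, a matrix-bound inhibitor of metalloproteinases, was at 157 ± 24.9 in GF and 80.8 ± 17.3 in SPF lung. It was at 0 reads in GF blood and GF spleen, which gives lung at least 119-fold and at least 40.2-fold higher levels. Plaur, the urokinase receptor, was at 1672 ± 218 in GF and 2019 ± 390 in SPF lung, and at 420.4 and 747 in GF and SPF blood. Its differences ran from 1.44 (lung over blood, SPF, adjusted p = 0.000267) to 2.57 (lung over spleen, SPF, adjusted p = 6.24e-09).

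The gelatinase gene Mmp9 was lower in lung, at 4648 ± 1043 in GF and 5538 ± 1143 in SPF mice against means of 7170 to 8754 elsewhere. Its differences were -0.94 and -0.57 against GF and SPF blood, with adjusted p of 0.00157 and 0.0444 by limma. The SPF call was lost under 13 of 28 alternatives and turned to 0.065 under quantile rescaling. Against GF and SPF spleen the Mmp9 differences were -0.63 and -0.55 (adjusted p = 0.0203 and 0.0498, limma), lost under 6 and 17 of 28 alternatives. The collagenase gene Mmp8, at 1723 in GF and 1296 in SPF lung, passed in 3 of the 4 comparisons (-0.66 against GF spleen, -0.71 against SPF blood and -0.65 against SPF spleen). Each of these calls was lost under 4 to 6 alternatives, among them the fit with no trended or robust prior. Mmp9 and Mmp8 are also 2 of the 14 neutrophil markers, of which 8 were lower in lung than in spleen in GF and again in SPF mice. The part of the neutrophil share in these values was not tested. F13a1, for the coagulation factor XIII A chain and also a monocyte marker, was lower in lung than in GF blood (2.68 ± 2.36 against 23.5 ± 1.81, difference -2.82, adjusted p = 0.00832, limma), lost under 5 of 27 alternatives. Timp2, a metalloproteinase inhibitor gene, averaged 31.7 to 98.2 and passed in none of the 4. None of the 7 genes passed between GF and SPF mice in blood, spleen or lung by limma, where 1.33%, 0.325% and 0.0241% of all genes passed.

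Thrombospondin 1 can free TGF-beta from its latent form, so genes of that complex and its receptors were followed, 7 of 15 being listed. Higher in lung were 2 of the 7 against GF blood, 2 against GF spleen, 4 against SPF blood and 3 against SPF spleen, beside 7.83%, 8.03%, 12.5% and 7.68% of all genes. The higher genes included Ltbp1, for a latent TGF-beta binding protein in both SPF comparisons, and these calls were lost under 6 (blood) and 2 (spleen) of 27 alternatives. The receptor gene Tgfbr2 was called against SPF blood (0.86) and lost that call under 9 of 28. Acvrl1, a TGF-beta family receptor typical of endothelium, was at 183 ± 24.7 in GF and 130.1 ± 31.4 in SPF lung, against 1.17 and 3.48 in blood and 28.4 and 12.7 in spleen. Lrrc32, which holds latent TGF-beta on the cell surface, was at 24.8 ± 9.06 and 17.0 ± 5.05 in lung and at 0 reads in spleen. Tgfb1 itself averaged 18.1 to 57.3, and was lower in lung than in spleen of GF mice (-1.38, adjusted p = 0.0431), which was lost under 11 of 27 alternatives.

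Of 11 tested genes that respond to TGF-beta, 4 were higher and 1 lower in lung against GF blood, and 5 were higher in each of the other 3 comparisons. Of all genes, 7.83% were called higher and 1.96% lower against GF blood, and 7.68% to 12.5% higher in the other 3. The lower gene was Tgfbi, which encodes a matrix protein (-0.70, adjusted p = 0.0155, limma, lost under 4 of 28 alternatives). The transcriptional repressor gene Id3 went from 0 reads in GF blood to 106 ± 16.4 in GF lung, at least 80.6-fold. Skil, a SMAD corepressor gene, was at 125 ± 28.2 and 151 ± 36.8 in GF and SPF lung and at 14.2 to 35.7 elsewhere. Tgif1, another corepressor of the SMAD pathway, was at 123 ± 12.2 and 142.5 ± 18.1 against 19.2 to 40.3. Between GF and SPF mice 0 of the 11 passed in any single tissue by limma. Of all genes, 1.33% passed in blood, 0.325% in spleen and 0.0241% in lung. The median differences of the 11 were 0.27, 0.30 and 0.19 in blood, spleen and lung, against 0.02, 0.01 and 0.03 over all genes.

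A list of 23 transcription factor genes, including Egr1 and the AP-1 members of the Jun and Fos families, had 20 tested genes. Higher in lung were 7 of the 20 in each comparison, beside 7.83% and 12.5% of all genes against GF and SPF blood and 8.03% and 7.68% against GF and SPF spleen. Klf6, a zinc finger factor gene, was lower in lung than in GF blood (-0.82), GF spleen (-0.68) and SPF blood (-1.25), and the first 2 calls were lost under 3 and 7 of 28 alternatives. Usf1 was lower against SPF blood (-1.01, lost under 14 of 27) and Sp3 against SPF spleen (-0.99, lost under 6 of 27). Egr1, an early growth response factor, averaged 1018 ± 318 in GF and 1100 ± 348 in SPF lung, against 0.497 to 5.03 elsewhere. Fosb, an AP-1 subunit gene, was at 46.2 ± 6.48 and 100.4 ± 41.3 in lung and at 0 to 2.37 elsewhere. Atf3, a stress-response factor, was at 781 ± 27.3 and 919 ± 52.4 in lung. Unlike Thbs1, the Atf3 level was lower in GF than in SPF blood (102 ± 60.3 against 288 ± 68.0, difference -1.56, adjusted p = 0.0412, limma), which was lost under 11 of 28 alternatives. It was the 1 gene of the list called between GF and SPF blood, where 0.53% of all genes were called lower.

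Thrombospondin 1 opposes angiogenesis, and 11 of 20 pro-angiogenic genes were listed. In each of the 4 comparisons 6 or 7 of the 11 were higher in lung, where 7.68% to 12.5% of all genes were called higher, and Mmp9 was lower. Vegfa, the main vascular growth factor, was at 64.4 ± 13.1 in GF and 79.9 ± 9.94 in SPF lung, against 2.89 to 6.74 elsewhere. Its receptor gene Kdr was at 105 ± 34.5 and 84.4 ± 30.9 in lung and at group means below 0.5 elsewhere. Kdr is also 1 of the 10 endothelial markers in the file, so it is itself part of their summed level. Osm, a cytokine gene that neutrophils express, was at 1424 ± 123 and 1838 ± 340 in lung and at 38.0 to 139 elsewhere, with differences of 3.70 to 5.20. None of the 11 passed between GF and SPF mice in any tissue by limma, where 1.33% (blood), 0.325% (spleen) and 0.0241% (lung) of all genes passed.

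Of 23 other genes for proteins with thrombospondin type 1 repeats, 4 were listed and 3 tested. Against blood 2 were higher and 1 lower in lung, in GF and in SPF mice, where 7.83% and 12.5% of all genes were called higher and 1.96% and 6.63% lower. Against spleen 1 was higher. Adamts10, which encodes a secreted metalloproteinase, was at 22.6 ± 7.60 in GF lung against a mean of 1.40 in GF blood, and at 24.5 ± 2.07 against 3.48 in SPF mice. Its differences against blood were 2.43 (adjusted p = 0.0246) and 2.53 (adjusted p = 0.0114) by limma, lost under 6 and 3 of 27 alternatives. Thsd1, which encodes a transmembrane protein with such a repeat, was at 16.3 ± 5.15 in GF and 13.9 ± 8.78 in SPF lung and at group means of at most 1.37 elsewhere. It was the gene called higher against spleen as well as blood, with its 4 calls lost under 2 to 9 of 27 alternatives. Cfp, which encodes properdin of the alternative complement pathway, a product of neutrophils, was at 599.9 ± 87.5 in GF and 507 ± 94.2 in SPF lung. In blood it was at 1032 ± 13.7 and 1165 ± 191, so that its lung difference was opposite in sign to that of Thbs1, at -0.79 (adjusted p = 0.0206) and -1.20 (adjusted p = 0.000244). The GF call was lost under 6 of 28 alternatives, among them leaving out either GF blood replicate.

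The genes with the profile most like that of Thbs1 were ranked by the root mean square (RMS) difference of log2(value + 1) over the 16 libraries, each gene centred on its own mean. Among 7860 genes the median RMS was 2.71. The 10 closest were Sptbn1 (1.01), Il1a (1.02), Lyve1 (1.03), Nrp1 (1.04), Jup (1.07), Il23a (1.09), F2r (1.09), Kdr (1.11), Mgp (1.11) and Gimap4 (1.11). They include cytokine genes (Il1a and Il23a), genes known from blood or lymphatic endothelium (Lyve1, Nrp1 and Kdr), a thrombin receptor gene (F2r) and the matrix Gla protein gene (Mgp). All 16 libraries enter this measure and their depths differ, so genes with few reads outside the lung resemble each other in it.

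These genes were far lower than Thbs1 in level, both outside the lung and in it. Their lung group means ran from 33.6 to 166, against 2114 (GF) and 2168 (SPF) for Thbs1. Il1a was at 124 ± 68.5 in GF and 110.0 ± 5.75 in SPF lung, and had 0 reads in both blood groups and in SPF spleen. Sptbn1, for the spectrin beta chain, was at 153 ± 35.6 and 105 ± 60.5 in lung, 6.04 in GF and 2.53 in SPF blood, and 15.3 in GF and 0.993 in SPF spleen. Lyve1 was at 105 ± 23.1 in GF and 45.2 ± 14.5 in SPF lung, and at no more than 5.03 elsewhere. None of the 10 was called between GF and SPF mice in blood or spleen by limma, where 1.33% and 0.325% of all genes were called. Il23a, F2r and Kdr had 0 reads in both spleen groups, as Il1a had in both blood groups. At such levels a difference by status could hardly be called, so no conclusion is drawn from this count.

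**Figure D5:**
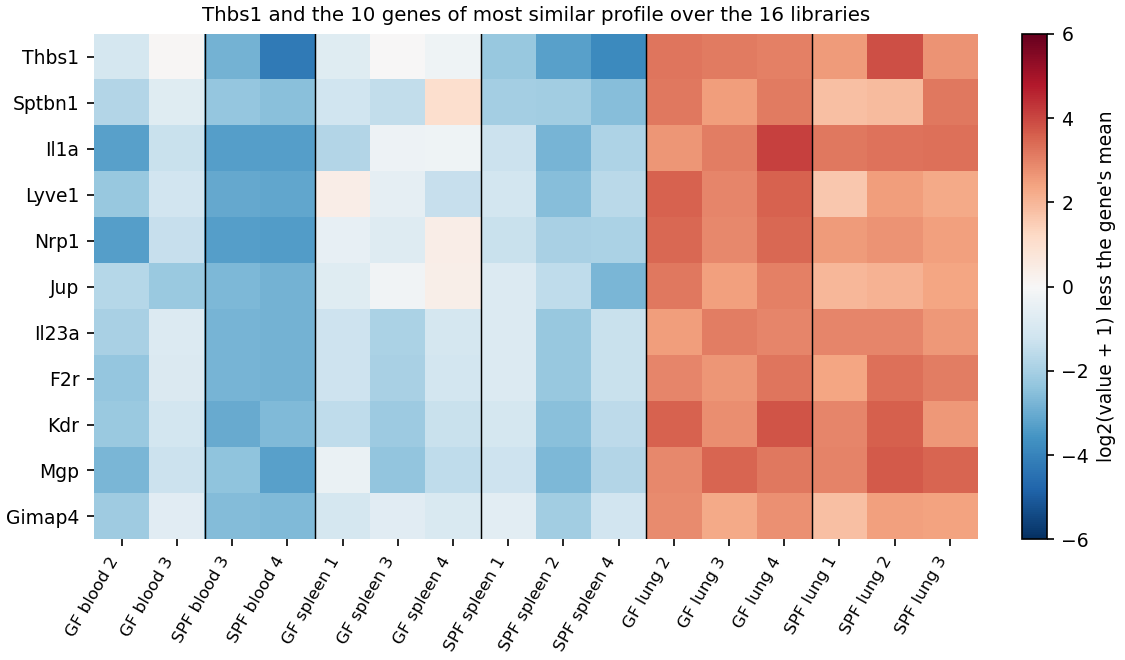
Log2(value + 1) less the gene's own mean over the 16 libraries, for Thbs1 and the 10 genes of most similar profile, with libraries in columns and vertical lines between groups. All 11 genes are high in the 6 lung libraries, and Thbs1 has the lowest centred values of its row in SPF blood replicate 4 and SPF spleen replicate 4.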

How the data were processed

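Ly6G+ neutrophils were sorted, their cDNA was amplified and paired-end libraries were sequenced, per the labels' protocols. The submitters' processing notes name CASAVA, RSEM 1.3.1, limma and build mm10. Strand handling is not given in the sources used here. The deposited signal is a normalised count per gene and library. From its values, each equals an estimated read count plus 0.5, times a factor for the library. Reads were recovered from it. Of values under 10 reads, 91.4 to 98.7% by library came out within 0.05 of a whole read. The libraries under 95% were treated the same way in edgeR and DESeq2, after rounding.

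Annotation was GENCODE M21 on GRCm38, to which 10275 of 10296 IDs matched. The test covered 8299 genes that reached a value of 10 in 2 or more libraries, and 1997 were removed. In limma 3.58.1 (R 4.3.3), log2(value + 1) of all 16 libraries was fitted to 6 group means, with a trended and robust variance prior. P-values were two-sided and adjusted by Benjamini-Hochberg over the tested genes of a comparison, at a threshold of 0.05. Thbs1 in lung against blood or spleen was given no test. The scripts were tested on simulated data.

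Members, lists and tests were chosen with earlier results of these data known. By rule the text could name Thbs1, every listed gene of the receptor and cleavage lists, up to 4 genes of smallest adjusted p of each other list, 10 genes most like Thbs1, and neighbouring genes. Cyth1 and some list members were named outside that rule. Alternatives were other pseudocounts (0.1 and 5), filters, rescalings (quantile, TMM), the offset removed, no trended or robust prior, edgeR 4.0.16, DESeq2 1.42.0, a depth minimum, leaving out each library and a replicate block. For genes other than Thbs1 they were chosen after seeing the data.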

Additional observations from a re-analysis of the deposited data

Results flagged for a closer look

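Sirpa, which encodes the CD47 counter-receptor of myeloid cells, had a GF minus SPF difference that was not the same in spleen and in blood. Its normalised counts were 766 ± 87.7 in GF and 458 ± 190 in SPF blood (SD, n = 2), and 545 ± 33.8 in GF and 958 ± 174 in SPF spleen (SD, n = 3). The interaction term was -1.60 on the log2 scale (adjusted p = 0.0248, limma), where 0.759% of genes passed. The term kept its sign in all 28 alternatives, from -2.04 to -1.17, and lost its call in 7, among them without GF blood replicate 3, SPF blood replicate 3, GF spleen replicate 3 or SPF spleen replicate 2 (-1.71, -1.17, -1.60 and -1.46). The same term of Thbs1 was -0.28 (adjusted p = 0.908, limma).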

How the results depend on the processing

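Under 28 alternatives none of the called differences of Thbs1 turned its sign. Thbs1 in GF minus SPF blood missed the threshold with no trended or robust prior (3.06, adjusted p = 0.133) and without the 5 libraries under 250000 reads (2.50, adjusted p = 0.155, with 1 GF blood library), and was 2.37 to 3.75 when each library was left out. In spleen it missed the threshold by edgeR (3.00) and without the shallow libraries (3.28, adjusted p = 0.132, with 1 library on each side and the spread of the other groups), and was 2.43 to 3.20 over the left-out libraries. The mean of tissues was 1.96 without the shallow libraries, and otherwise 1.75 to 2.21. The interaction with lung minus blood passed with DESeq2 (-3.15) and was -3.66 to -2.28 over the left-out libraries, and that with lung minus spleen was -3.11 to -2.28. Lung minus blood in SPF mice was 5.88 to 7.26 over the left-out libraries. The cause was not tested, beyond the fewer libraries in the leave-outs.

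Libraries with the same number within a status did not deviate together (9 pairs, r from -0.13 to 0.07). With 2 libraries in a blood group their deviations mirror each other, and many libraries are shallow. The check therefore cannot tell whether libraries of the same number share a mouse. With a replicate block, Thbs1 was 2.80 in GF minus SPF blood (adjusted p = 0.0668) and 5.88 in lung minus blood of SPF mice. The block changed no other call of Thbs1.

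The count of genes called moved by over 1.5 times: GF minus SPF from 110 to between 0 and 427 in blood, 27 to between 10 and 220 in spleen, 2 to between 0 and 7 in lung, and 115 to between 10 and 368 for the mean. For lung minus blood it ranged from 384 to 1243 in GF and 704 to 2628 in SPF mice, and for lung minus spleen from 365 to 1020 and 419 to 987. Of 149 calls of list genes and Cyth1, 89 held in all alternatives and 60 were lost in at least 1. Mmp9 turned to 0.065 in SPF lung minus blood under quantile rescaling. That rescaling moved the median of all genes in lung minus blood from 0.15 to -0.14 (GF) and 0.16 to -0.13 (SPF). Depth limits the spleen values, where 3 to 100 reads stand behind Thbs1, and on simulated data false calls were more frequent in spleen than the threshold allows.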
